A study of Mus musculus with 44 samples.

Results

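Expression of 8 genes that organise lymphoid tissue was followed in the inflamed mouse intestine. They were the chemokines Cxcl13, Ccl19 and Ccl21a, the chemokine receptors Cxcr5 and Ccr7, the complement receptor gene Cr2, the high endothelial venule gene Glycam1, and Tnfsf13b, which encodes the B cell survival factor BAFF. The genes were chosen by name, with earlier results of these data known, and looked up by Ensembl identifier, and all 8 were present among the 29720 genes of the count tables.

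The study measured poly-A RNA in 44 libraries of snap-frozen intestine from C57BL/6 mice, in 2 models and 8 groups. In the T cell transfer model, every mouse was a Rag1 null animal, which makes no T or B cells of its own. Inflamed mice had received 400000 naive T cells and had developed colitis over 8 to 12 weeks, while non-inflamed controls had received 200000 bulk T cells. These were 6 colitis libraries with ATI-450, 6 colitis libraries with vehicle, 6 control libraries with ATI-450 and 5 control libraries with vehicle. In the TNF∆ARE model, inflamed mice were heterozygous Tnf ∆ARE/+ and controls were Tnf +/+ littermates, all of them 16 weeks old at randomization. Here the groups held 6 Tnf ∆ARE/+ libraries with ATI-450, 5 Tnf ∆ARE/+ libraries with vehicle, 5 Tnf +/+ libraries with ATI-450 and 5 Tnf +/+ libraries with vehicle. The MK2 inhibitor ATI-450 was given at 3 mg/kg and repeated after 16 h, with tissue taken 90 min after the second dose. MK2 is a kinase downstream of p38 that acts through proteins bound to AU-rich elements of cytokine transcripts, and the ∆ARE allele removes such an element from Tnf. The vehicle was 0.5% methylcellulose and 0.025% Tween20 in PBS. The transferred cells differed in number as well as in kind between colitis and control mice, so these cannot be told apart. The labels name no animal for each library, so p-values measure the spread between these libraries.

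In lymph nodes, spleen and gut lymphoid follicles, stromal cells make chemokines that sort lymphocytes into compartments. Cxcl13 draws cells that carry Cxcr5 into B cell follicles, and Ccl19 and Ccl21a draw T cells and mature dendritic cells that carry Ccr7 into T cell zones. Lymphotoxin and TNF signals to stromal cells, partly through noncanonical NF-kappaB, are known in mice to sustain these chemokines. The same genes are known from tertiary lymphoid tissue, which can form in chronically inflamed gut.

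Sequencing depth and tissue makeup differed between libraries. Assigned counts ran from 5.95 M to 22.3 M reads per library in the transfer model (median 17.7 M) and from 5.8 M to 13.1 M in the TNF∆ARE model (median 10.5 M), where M stands for 1000000. The labels give distal colon and ileum as tissues without tying them to a model. In vehicle controls, the colon gene Hoxb13 averaged 455 CPM (counts per 1000000 counts, on library sizes scaled by edgeR) in the transfer model and 0.0218 CPM in the TNF∆ARE model, while the small intestinal gene Sis averaged 0.698 and 3362 CPM in the same 2 groups. Replicate 3 of the vehicle colitis mice stood apart, with small intestinal enterocyte genes summing to 29450 CPM and 5 colon genes to 1.23 CPM. Another 5 colitis libraries held over 100 CPM of pancreatic acinar transcripts. Calls without these libraries are given beside the results they change; those for gene lists were added after seeing the data. Because whole tissue was measured, a change in the number of cells of a type and a change in RNA per cell cannot be told apart.

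Inflamed tissue held more RNA of several of these genes in each model. In vehicle-treated colitis mice, 3 of the 5 genes with enough counts to be tested rose against bulk T cell recipients (edgeR quasi-likelihood test, adjusted p under 0.05), where 14.2% of all 15317 genes tested were called, 7.90% higher and 6.28% lower. They were Cxcl13, Ccl19 and Ccr7. In vehicle-treated Tnf ∆ARE/+ mice, 4 of 8 genes rose against Tnf +/+ littermates, where 15.9% of 14370 genes were called, 8.66% higher and 7.27% lower. They were Cxcl13, Ccl19, Ccl21a and Tnfsf13b. None of the 8 genes was called lower in either model. With ATI-450 on both sides, the same 3 genes rose in colitis mice, where 25.0% of genes were called, 14.0% higher and 11.0% lower, and Ccl19 alone rose in Tnf ∆ARE/+ mice, where 12.5% were called, 7.91% higher and 4.56% lower. DESeq2 also called 1 gene there, Cxcl13 (DESeq2 adjusted p = 0.0330) in place of Ccl19 (DESeq2 adjusted p = 0.0527). The 3 calls of the vehicle-treated transfer model depended on the other groups of that model, which share in the estimate of spread. With the 2 compared groups fitted alone, edgeR called no gene, and Cxcl13 differed by 2.74 on the log2 scale with an adjusted p of 0.405.

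**Figure D1:**
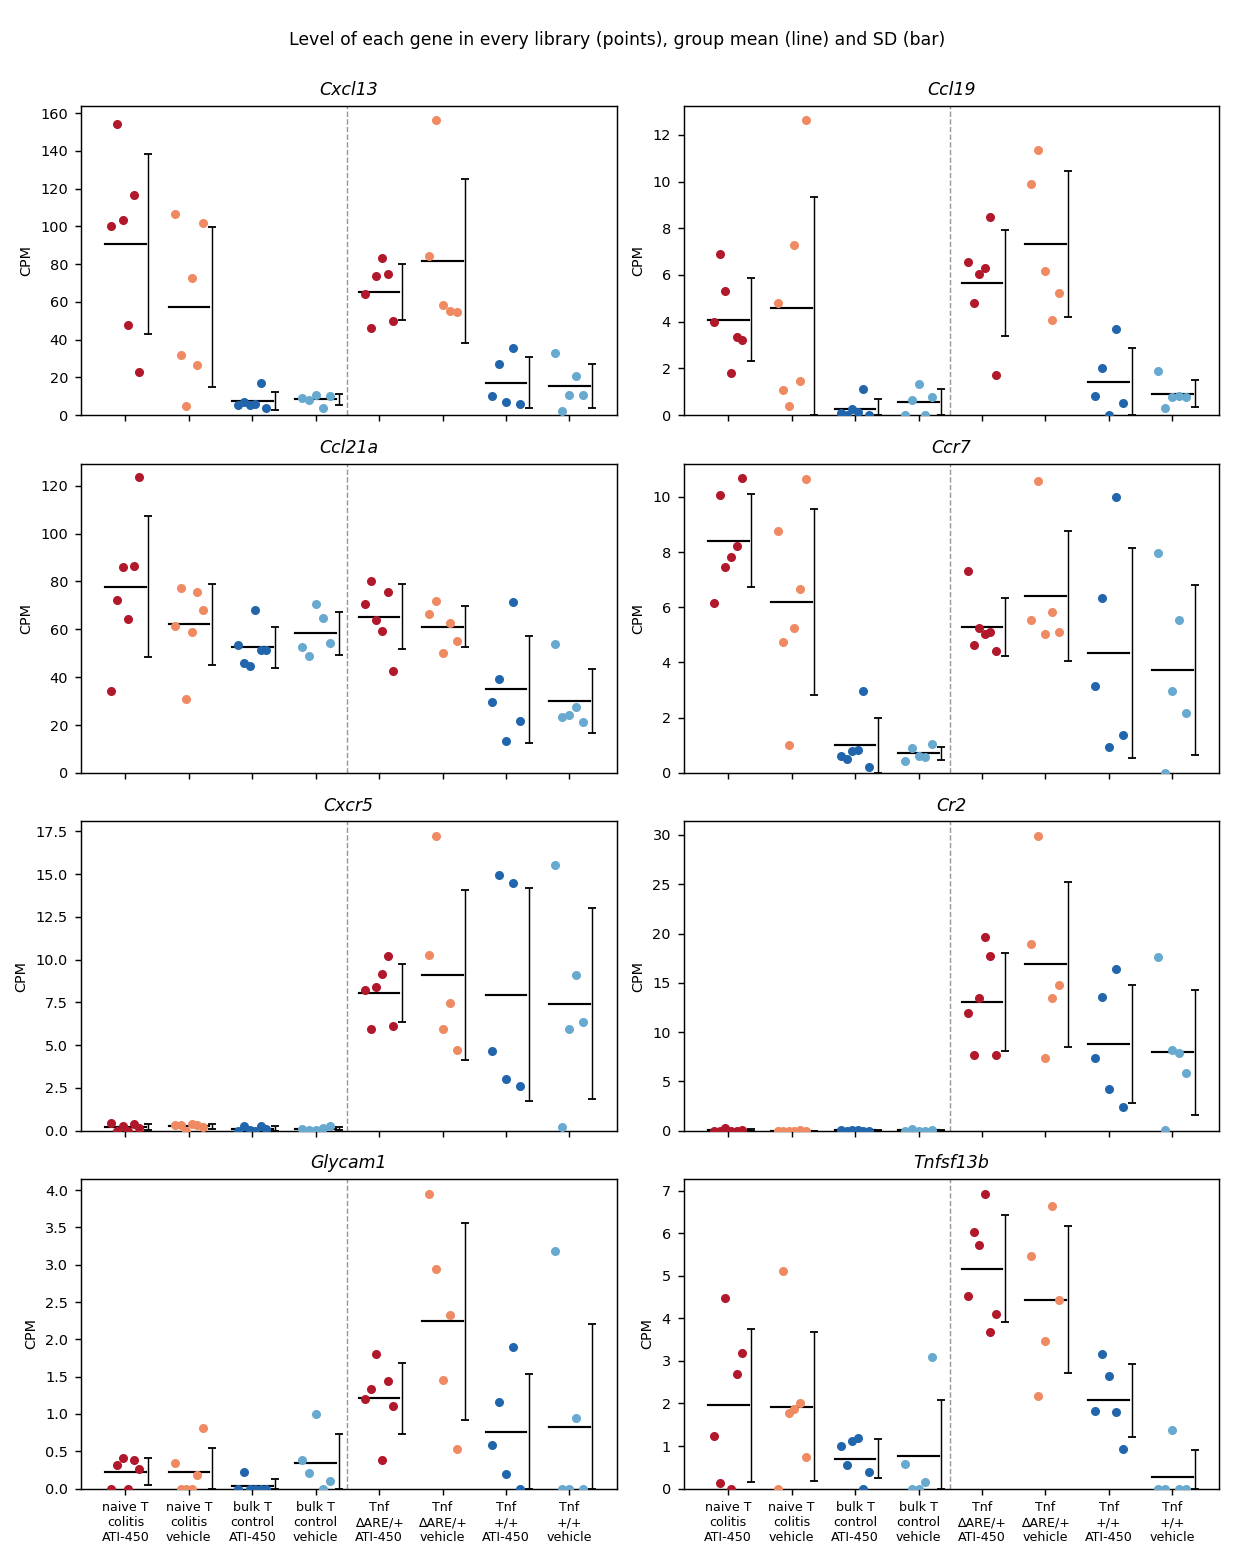
Level of each of the 8 genes in CPM (vertical axis) in every library (points) of the 8 groups (horizontal axis), with the group mean as a line and 1 SD as a bar that is cut off at 0. Cxcl13 lies above 45 CPM in every Tnf ∆ARE/+ library, and Cxcr5 and Cr2 lie near 0 in all 23 libraries of the transfer model.

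Cxcl13 (ENSMUSG00000023078, chr5:95956951-95961068, plus strand, GENCODE M21 on GRCm38 for all 8 genes), the B cell chemokine, was higher in inflamed mice of both models. In the transfer model, Cxcl13 reached 106.5, 31.7, 4.60, 72.8, 26.3 and 102 CPM in the 6 vehicle-treated colitis libraries, against 9.27, 7.85, 10.7, 3.79 and 10.1 CPM in the 5 vehicle-treated control libraries. The controls kept to a narrow range, and among colitis libraries only the one with small intestinal transcripts fell inside it. The means were 57.3 ± 42.5 CPM in colitis mice and 8.33 ± 2.75 CPM in controls (SD, n = 6 and 5). The fitted difference was 3.03 ± 0.62 on the log2 scale (SE, edgeR adjusted p = 0.00436), and without the small intestinal library it was 3.26 (edgeR adjusted p = 0.00037). Batch 4, as the labels number it, held 5 of the colitis and 2 of the control libraries, and there Cxcl13 averaged 47.4 CPM in colitis mice and 6.94 CPM in controls.

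Cxcl13 also rose in the TNF∆ARE model. Cxcl13 stood at 84.3, 156, 58.1, 55.3 and 54.6 CPM in vehicle-treated Tnf ∆ARE/+ mice, against 32.7, 2.11, 10.6, 20.8 and 10.6 CPM in vehicle-treated Tnf +/+ mice. Every inflamed library was above every control library. The fitted difference was 2.44 ± 0.56 (edgeR adjusted p = 0.00465). All but 1 of these libraries were in batch 2, where the means were 88.5 CPM in 4 Tnf ∆ARE/+ libraries and 15.4 CPM in 5 Tnf +/+ libraries.

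With ATI-450 on both sides, Cxcl13 ranged from 22.9 to 154 CPM in colitis mice (median 101.7), against 3.75 to 16.7 CPM in bulk T cell recipients (median 5.64). These groups did not overlap, and the difference was 3.54 ± 0.54 (edgeR adjusted p = 0.000159). Tnf ∆ARE/+ mice on ATI-450 held 46.1 to 83.5 CPM (median 69.0), against 9.86, 27.2, 6.82, 35.7 and 5.68 CPM in Tnf +/+ mice on ATI-450. These groups did not overlap either, while the fitted difference of 2.22 ± 0.76 missed the threshold (edgeR adjusted p = 0.0625). In that comparison 5 of 6 inflamed libraries came from batch 3 and all 5 controls from batch 2, so batch and genotype are told apart there only through the other groups and 1 library, which had 64.0 CPM.

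Ccl19 (ENSMUSG00000071005, chr4:42754525-42756577, minus strand), a ligand of Ccr7, rose in the same comparisons at a far lower level. It had 4.80, 1.07, 0.384, 7.27, 1.45 and 12.6 CPM in vehicle-treated colitis mice, against 0, 0.632, 1.33, 0 and 0.771 CPM in vehicle-treated bulk T cell recipients. The colitis libraries spread over a wide range and 2 of 6 fell among the controls. The fitted difference was 3.38 ± 1.04 (edgeR adjusted p = 0.0337), and 3.64 without the small intestinal library. In batch 4 the means were 4.56 CPM in colitis mice and 0.386 CPM in controls. This call was the least secure of the 3: leaving out 1 library at a time kept it in 6 of 11 fits, with adjusted p from 0.0101 to 0.137, and the call was lost without colitis replicate 4 or 6 or without control replicate 1, 2 or 6. It was also lost with limma on the deposited signal and with edgeR dispersions from estimateDisp (adjusted p = 0.0526 and 0.0761).

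In vehicle-treated Tnf ∆ARE/+ mice Ccl19 stood at 9.90, 11.3, 6.15, 4.08 and 5.23 CPM, against 1.88, 0.316, 0.793, 0.837 and 0.764 CPM in vehicle-treated Tnf +/+ mice. All 5 inflamed libraries lay above all 5 controls. The difference was 2.98 ± 0.57 (edgeR adjusted p = 0.00109), and it was called in each of 10 fits that left out 1 library. On ATI-450, Ccl19 ran from 1.81 to 6.89 CPM in colitis mice (median 3.66), against 0 to 1.135 CPM in bulk T cell recipients (median 0.112), a difference of 4.46 ± 1.01 (edgeR adjusted p = 0.00316). It ran from 1.73 to 8.48 CPM in Tnf ∆ARE/+ mice on ATI-450 (median 6.17), against 0.829, 2.00, 0, 3.69 and 0.508 CPM in Tnf +/+ mice on ATI-450, a difference of 2.36 ± 0.70 (edgeR adjusted p = 0.0324). The lowest of these inflamed libraries fell among the controls, and leaving out 1 library at a time kept that call in 7 of 11 fits, with adjusted p from 0.00442 to 0.247.

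The levels of Ccl19 are uncertain because the mouse genome holds near copies of it. Of the 773 bases of its transcript, 687 matched the gene Gm2564 at 98.8% identity, and 3 further copies of 285 or 286 matched bases were counted, Ccl19-ps1, Ccl19-ps3 and Gm12407. Median shares of reads assigned to Ccl19 itself, out of all these copies, were 36.8% in vehicle-treated colitis mice and 37.5% in their controls, and 39.8% in vehicle-treated Tnf ∆ARE/+ mice and 40.0% in Tnf +/+ mice. Summed over the copies, the level was 12.6 ± 11.6 CPM in vehicle-treated colitis mice and 1.23 ± 1.25 CPM in controls, and 18.5 ± 7.27 CPM in vehicle-treated Tnf ∆ARE/+ mice and 2.38 ± 2.04 CPM in Tnf +/+ mice. With copies summed, the call in Tnf ∆ARE/+ mice on ATI-450 was lost.

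Ccl19 and Cxcl13 were the only 2 of the 8 genes called higher in vehicle-treated inflamed mice of both models, and their promoters are shown for that reason. The 250 bases upstream of each start are given from RefSeq (GRCm38.p6), read on the strand of the gene, with matches to GGGANNTTT in capitals. This form takes in the stretch GGGAGATTT of the Cxcl13 promoter, described in mice as a RelB-type NF-kappaB site. The form was searched after the sequences had been read. Its match in Cxcl13 was therefore fixed beforehand, and the match in Ccl19 relies on the 2 open bases. That both genes hold a match is thus no result. The Ccl19 stretch is chr4:42756366-42756615 on the minus strand and the Cxcl13 stretch is chr5:95956689-95956938 on the plus strand.
Ccl19: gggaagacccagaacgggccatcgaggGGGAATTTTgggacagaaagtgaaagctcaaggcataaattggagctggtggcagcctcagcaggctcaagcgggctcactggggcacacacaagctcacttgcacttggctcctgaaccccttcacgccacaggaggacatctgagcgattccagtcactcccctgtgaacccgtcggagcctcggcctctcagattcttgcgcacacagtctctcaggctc
Cxcl13: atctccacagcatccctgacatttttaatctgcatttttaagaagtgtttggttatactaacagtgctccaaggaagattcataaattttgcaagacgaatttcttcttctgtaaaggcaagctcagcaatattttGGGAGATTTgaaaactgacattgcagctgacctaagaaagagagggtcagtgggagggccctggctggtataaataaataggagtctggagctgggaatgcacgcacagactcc
The match begins 223 bases upstream of the RefSeq start of Ccl19 and 114 bases upstream of the RefSeq start of Cxcl13. GENCODE M21 puts the Ccl19 start at chr4:42756577, inside the Ccl19 stretch. By that start most of the stretch is within the gene, and the match lies upstream but much closer to the start. On either strand, 4.10% of 27025 promoters of this length hold such a match. Promoters were found for 6 of the 8 genes, and those of Ccl21a, Cr2, Glycam1 and Tnfsf13b held no match. The canonical kappaB motif was in none of the 6, and is in 9.28% of all promoters. A second start of Tnfsf13b held the AP-1 motif TGANTCA, which is in 6.87% of all promoters. A match describes these letters and is not a site.

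Ccl21a (ENSMUSG00000094686, chr4:42772860-42773993, minus strand), the other Ccr7 ligand, was abundant without inflammation and rose in 1 model. In the transfer model it had 61.6, 77.2, 30.9, 58.8, 75.8 and 68.2 CPM in vehicle-treated colitis mice, against 52.6, 49.0, 70.7, 64.8 and 54.3 CPM in vehicle-treated controls. The groups overlapped throughout, with the small intestinal library lowest. The fitted difference was -0.08 (95% interval -0.65 to 0.50, edgeR adjusted p = 0.876). Ccl21a in the TNF∆ARE model had 66.5, 71.6, 50.01, 62.5 and 55.0 CPM in vehicle-treated Tnf ∆ARE/+ mice, against 53.8, 23.2, 24.1, 27.6 and 21.3 CPM in vehicle-treated Tnf +/+ mice. A single control library lay among the inflamed ones. The difference was 1.05 ± 0.34 (edgeR adjusted p = 0.0430), and it was past the threshold in 2 of 10 fits that left out 1 library, with adjusted p from 0.00769 to 0.110. With ATI-450 on both sides Ccl21a did not pass in either model, at 0.48 ± 0.25 in colitis mice and 1.04 ± 0.46 in Tnf ∆ARE/+ mice (edgeR adjusted p = 0.157 and 0.168). Batch 2 gave means of 62.7 CPM in vehicle-treated Tnf ∆ARE/+ mice and 29.99 CPM in vehicle-treated Tnf +/+ mice.

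Ccl21a too has near-identical copies in the genome, and 5 bases separate its transcript from that of Gm13304 over 837 compared bases. Counted from 1 at the 5′ end of the Ccl21a transcript, with the Ccl21a base first, they are T159A and C269T in the coding part and C640T, T812C and G856A outside it. The stretches around the first 2 are shown because few reads can tell the genes apart: the differing base is in capitals, in GENCODE M21 on GRCm38, with Ccl21a at chr4:42773717-42773763 and chr4:42773513-42773548 on the minus strand and Gm13304 at chr4:42115014-42115060 and chr4:42115229-42115264 on the plus strand.
Ccl21a, base 159: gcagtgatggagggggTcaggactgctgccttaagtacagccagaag
Gm13304, base 159: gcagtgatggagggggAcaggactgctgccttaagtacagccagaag
Ccl21a, base 269: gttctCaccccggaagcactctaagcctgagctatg
Gm13304, base 269: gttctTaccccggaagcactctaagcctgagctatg
The 2 upstream regions are nearly alike as well, with 247 of 249 bases identical.

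Salmon, which assigned the reads, divided them between these genes. The share on Ccl21a, of all reads on the Ccl21 copies in the table, had a median of 61.9% in vehicle-treated colitis mice (56.8% to 67.9%), against 69.1% in vehicle-treated controls (63.4% to 74.3%). It had a median of 72.8% in vehicle-treated Tnf ∆ARE/+ mice (67.2% to 79.3%), against 80.7% in vehicle-treated Tnf +/+ mice (75.6% to 88.5%). The shares overlapped between inflamed and control libraries in both models, and this difference was not tested. Gm13304 itself stood at 24.2, 26.7, 24.4, 16.3 and 21.2 CPM in vehicle-treated Tnf ∆ARE/+ mice, against 7.01, 6.33, 5.75, 8.89 and 3.49 CPM in vehicle-treated Tnf +/+ mice. All 5 inflamed libraries were above the controls. Summed over the copies, the Ccl21 level was 83.7 ± 10.4 CPM in vehicle-treated Tnf ∆ARE/+ mice and 36.3 ± 14.3 CPM in Tnf +/+ mice, and 100.1 ± 29.2 CPM in vehicle-treated colitis mice and 86.1 ± 15.7 CPM in controls (SD, n = 5, 5, 6 and 5).

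Ccr7 (ENSMUSG00000037944, chr11:99144196-99155077, minus strand), the receptor for both of these ligands, rose in the transfer model. It had 8.75, 4.73, 0.998, 5.25, 6.67 and 10.7 CPM in vehicle-treated colitis mice, against 0.447, 0.895, 0.599, 0.591 and 1.03 CPM in vehicle-treated controls. Again only the small intestinal library was as low as a control. The difference was 2.91 ± 0.55 (edgeR adjusted p = 0.00308), and 3.14 without that library (edgeR adjusted p = 0.000263). In batch 4 the means were 5.66 CPM in colitis mice and 0.810 CPM in controls. On ATI-450, Ccr7 ran from 6.17 to 10.7 CPM in colitis mice (median 8.03), against 0.227 to 2.98 CPM in controls (median 0.715). These groups did not overlap, and the difference was 3.14 ± 0.47 (edgeR adjusted p = 0.000141).

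In the TNF∆ARE model, whose mice keep their own lymphocytes, Ccr7 was present in most controls. Vehicle-treated Tnf ∆ARE/+ mice had 5.53, 10.6, 5.04, 5.83 and 5.10 CPM, against 7.95, 0, 2.97, 5.54 and 2.18 CPM in vehicle-treated Tnf +/+ mice. The controls spread on both sides of most inflamed libraries. The difference was 0.82 (95% interval -0.41 to 2.04, edgeR adjusted p = 0.420). On ATI-450 the level was 4.41 to 7.32 CPM in Tnf ∆ARE/+ mice (median 5.08), against 3.15, 6.32, 0.948, 9.99 and 1.36 CPM in Tnf +/+ mice, again with overlap.

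T cell genes moved with Ccr7 in the transfer model. Of 8 T cell genes, 6 rose in vehicle-treated colitis mice, with Cd3d at 3.60 ± 0.89 and Cd2 at 3.58 ± 0.69 on the log2 scale (edgeR adjusted p = 0.0116 and 0.00331), and the median of the 8 was 2.81 against 0.05 for all genes tested. Without the small intestinal and pancreatic libraries 4 of 8 rose, in a fit that called 1053 genes in all, against 2172 with every library. Their summed level was 50.3 to 224 CPM in those mice and 5.37 to 53.2 CPM in controls. In vehicle-treated Tnf ∆ARE/+ mice none of the 8 passed the test, and their summed level was 61.5 to 85.6 CPM, against 32.4 to 151 CPM in Tnf +/+ mice. The part of T cell number in the Ccr7 result was not tested.

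Cxcr5 (ENSMUSG00000047880, chr9:44511787-44561877, minus strand), the receptor for Cxcl13 on B cells and follicular helper T cells, was close to absent from the transfer model. There it had 67 counts over 23 libraries, with at most 9 in 1 library, and it did not pass the filter on low counts. Its level was 0 to 0.416 CPM in vehicle-treated colitis mice (median 0.325), against 0.128, 0.0527, 0.0666, 0.148 and 0.257 CPM in vehicle-treated controls. A library with 3 counts, the limit that a count of 0 allows, had between 0.132 and 0.515 CPM, so these levels lie near that limit. Cxcr5 in the TNF∆ARE model had 10.3, 17.2, 5.93, 7.46 and 4.70 CPM in vehicle-treated Tnf ∆ARE/+ mice, against 15.5, 0.211, 5.94, 9.10 and 6.33 CPM in vehicle-treated Tnf +/+ mice. The groups overlapped, and 1 control library lay far below every inflamed one. The difference was 0.35 (95% interval -0.86 to 1.56, edgeR adjusted p = 0.787). On ATI-450 it was 5.95 to 10.2 CPM in Tnf ∆ARE/+ mice (median 8.33), against 4.64, 15.0, 3.03, 14.5 and 2.63 CPM in Tnf +/+ mice. The spread was wider among those controls than among the inflamed libraries. Exons of Cxcr5 overlap Bcl9l on the opposite strand, and whether the counting used strand is not given in the sources used here.

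Cr2 (ENSMUSG00000026616, chr1:195136811-195176716, minus strand), the complement receptor of B cells and follicular dendritic cells, had 13 counts in all 23 transfer libraries together and none in 15 of them. Cr2 in the TNF∆ARE model had 18.9, 29.9, 7.38, 13.4 and 14.8 CPM in vehicle-treated Tnf ∆ARE/+ mice, against 17.6, 0.105, 8.22, 7.85 and 5.90 CPM in vehicle-treated Tnf +/+ mice. Most inflamed libraries were above most controls, with overlap at both ends. The difference was 1.07 (95% interval -0.18 to 2.32, edgeR adjusted p = 0.270). On ATI-450 it was 7.63 to 19.6 CPM in Tnf ∆ARE/+ mice (median 12.7), against 7.38, 13.6, 4.26, 16.4 and 2.37 CPM in Tnf +/+ mice, and these overlapped too. The authors' deposited normalized signal for Cr2 was ordered differently from these counts. It was 95.4, 413, 14.6, 188 and 40.8 in vehicle-treated Tnf ∆ARE/+ mice, against 318, 6.82, 212, 35.6 and 241 in vehicle-treated Tnf +/+ mice. On that scale inflamed libraries were not higher as a group, and limma gave a log2 difference of 0.20 with adjusted p = 0.957.

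B cell genes followed the same split between models. The summed level of 10 B cell genes was at most 9.23 CPM in any transfer library. In vehicle-treated mice that sum was 4.23 to 5.66 CPM with colitis and 0.837 to 3.497 CPM in controls. Of the 2 B cell genes with enough counts to be tested there, both rose: Cd79b by 1.95 ± 0.55 and Cd22 by 1.79 ± 0.47 (edgeR adjusted p = 0.0203 and 0.0160), at mean levels of 1.13 CPM and 2.85 CPM in colitis mice, against 0.317 CPM and 0.708 CPM in controls. Without the small intestinal and pancreatic libraries neither was called (edgeR adjusted p = 0.119 and 0.0784). The sum in the TNF∆ARE model was 135 to 388 CPM in vehicle-treated Tnf ∆ARE/+ mice, against 12.97 to 280.0 CPM in vehicle-treated Tnf +/+ mice. None of the 10 passed the test there, with a median log2 difference of 0.53 against -0.02 for all genes tested. The lowest sum belonged to Tnf +/+ vehicle replicate 2, which also had the lowest Cxcl13, Ccr7, Cxcr5 and Cr2 of its group.

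Glycam1 (ENSMUSG00000022491, chr15:103562759-103565081, minus strand), which encodes a mucin-like glycoprotein of high endothelial venules, had few counts in either model. It had 67 counts over 23 transfer libraries and was not tested there. In vehicle-treated Tnf ∆ARE/+ mice it had 3.95, 2.94, 1.45, 2.33 and 0.537 CPM, against 3.18, 0, 0, 0.942 and 0 CPM in vehicle-treated Tnf +/+ mice. Detection in all 5 inflamed and 2 of 5 control libraries came with overlapping values. The difference was 1.39 (95% interval -0.17 to 2.94, edgeR adjusted p = 0.247), while limma-voom with quality weights called it at 3.94 (adjusted p = 0.0199). Leaving out 1 control library, replicate 1, gave 3.35 and a call as well (edgeR adjusted p = 0.0115), and the adjusted p over all alternatives ran from 0.0115 to 0.471. On ATI-450 it was 0.378 to 1.81 CPM in Tnf ∆ARE/+ mice (median 1.27), against 0.580, 1.16, 0.190, 1.89 and 0 CPM in Tnf +/+ mice, with overlap.

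Tnfsf13b (ENSMUSG00000031497, chr8:10006467-10039072, plus strand), the gene of BAFF, rose in the TNF∆ARE model. It had 5.46, 2.18, 3.47, 6.65 and 4.43 CPM in vehicle-treated Tnf ∆ARE/+ mice, against 0, 0, 1.39, 0 and 0 CPM in vehicle-treated Tnf +/+ mice. All inflamed libraries were above all controls, 4 of which had no count. Tnf +/+ mice on ATI-450 had 11 to 30 counts in all 5 libraries, and whether the zeros are failed estimates was not tested. The fitted difference was 3.96 ± 0.68 (edgeR adjusted p = 0.000304), a value that depends on how zero counts are handled and reached 8.47 without control replicate 3. On ATI-450 Tnfsf13b ran from 3.68 to 6.92 CPM in Tnf ∆ARE/+ mice (median 5.14), against 1.82, 3.16, 2.65, 1.80 and 0.932 CPM in Tnf +/+ mice. These groups did not overlap, and the difference of 1.24 ± 0.64 did not pass the test (edgeR adjusted p = 0.251). In the transfer model it was at 0 to 5.12 CPM in vehicle-treated colitis mice (median 1.82), against 0.575, 0, 0, 0.148 and 3.09 CPM in vehicle-treated controls. The groups overlapped, and the difference was 0.84 (95% interval -1.19 to 2.88, edgeR adjusted p = 0.577).

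**Figure D2:**
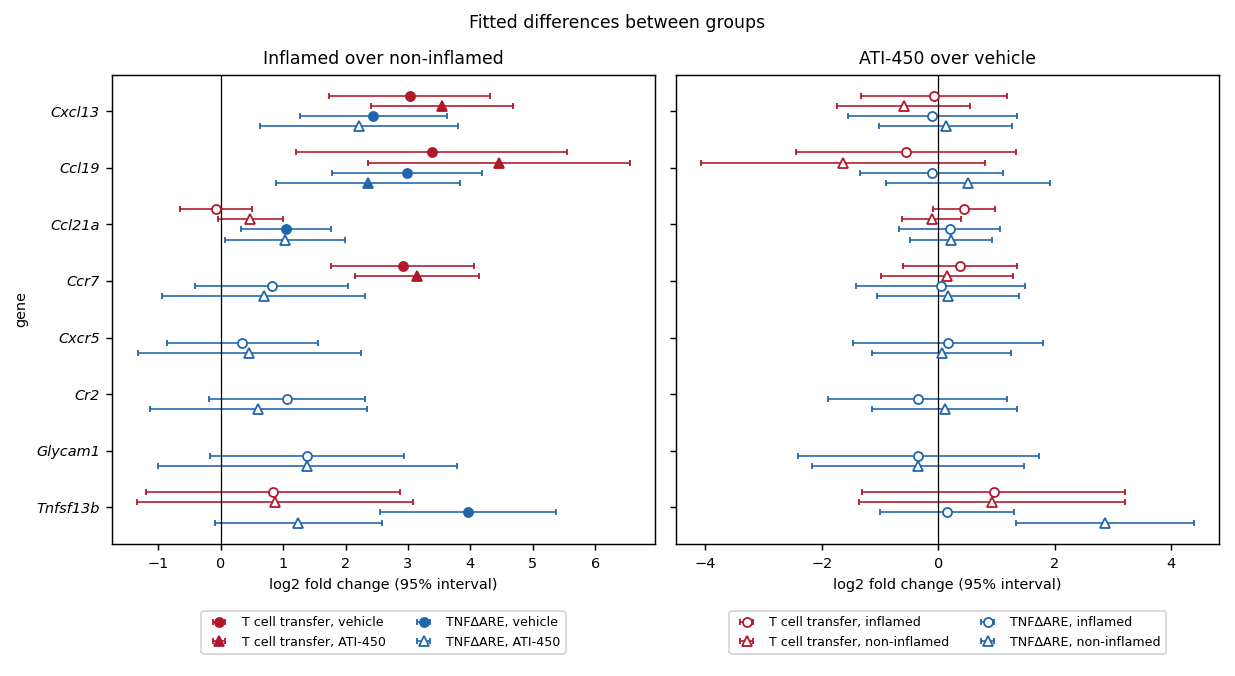
Fitted log2 differences with 95% intervals (horizontal axis) for each gene (vertical axis), inflamed over non-inflamed on the left and ATI-450 over vehicle on the right, for both models. Filled symbols have an edgeR adjusted p under 0.05, and none of the ATI-450 differences is filled.

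Within inflamed mice, no difference between ATI-450 and vehicle passed the test for any of the 8 genes. In colitis mice, ATI-450 against vehicle called 0 of 5 genes tested, where 0.00653% of all genes were called, and in Tnf ∆ARE/+ mice it called 0 of 8, where 0% were called. No member had an unadjusted p under 0.05 in either comparison, and DESeq2 and limma-voom called none. Cxcl13 differed by -0.08 in colitis mice (95% interval -1.33 to 1.18) and by -0.10 in Tnf ∆ARE/+ mice (95% interval -1.56 to 1.36). Ccl19 differed by -0.56 in colitis mice (95% interval -2.45 to 1.34) and by -0.11 in Tnf ∆ARE/+ mice (95% interval -1.34 to 1.11). Ccl21a had the narrowest interval in colitis mice, at 0.44 (-0.09 to 0.98). The intervals of Cxcl13 and Ccl19 extend beyond 1 log2 unit in both directions, and a p that misses the threshold does not show that the groups are alike. Over all genes, edgeR called 1 gene in colitis mice and 0 in Tnf ∆ARE/+ mice, with 530 and 216 genes at an unadjusted p under 0.05, while DESeq2 called 23 in colitis mice and limma-voom 3 in Tnf ∆ARE/+ mice. Batch was nearly nested in treatment here: no batch held more than 1 library on both sides of either comparison, so within-batch values rest on single libraries.

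Among non-inflamed mice, ATI-450 against vehicle called 0 of 5 genes in the transfer model and 0 of 8 in the TNF∆ARE model, where 0% of all genes were called in both. Tnfsf13b was the 1 member with an unadjusted p under 0.05. Set against the vehicle values given above, all 5 Tnf +/+ mice on ATI-450 had counts for it, and 4 of 5 were above every vehicle library. The difference, which rests on those zeros, was 2.86 ± 0.73 (unadjusted p from the edgeR fit 0.000826, adjusted p = 0.758), and DESeq2 called it with an adjusted p of 0.0247. Leaving out Tnf +/+ vehicle replicate 3 gave 7.37 and a call (edgeR adjusted p = 0.0386), and over all alternatives the adjusted p ran from 0.0247 to 1.0. The interaction of inhibitor and inflammation called no member in either model, where 0% of all genes were called, and was -2.72 for Tnfsf13b (edgeR adjusted p = 1.0). Over all genes, unadjusted p-values under 0.05 numbered 222 and 411 for ATI-450 in controls of the transfer and TNF∆ARE models, and DESeq2 called 45 and 33. For the interaction they numbered 339 and 252, and DESeq2 called 38 and 11.

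A direct test of the inflammation effect between models, in vehicle-treated mice, called 0 of 8 genes, where 5.27% of 15565 genes were called, 3.37% higher and 1.91% lower. An unadjusted p under 0.05 was found for 3 genes. The effect in the transfer model minus that in the TNF∆ARE model was 2.06 ± 0.86 for Ccr7, -1.14 ± 0.44 for Ccl21a and -3.11 ± 1.31 for Tnfsf13b (edgeR adjusted p = 0.170, 0.133 and 0.169). DESeq2 called none, and limma-voom called Ccl21a and Glycam1. The models also differ in gut region, host and batch, which cannot be told apart.

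Most listed genes of follicular stroma were higher in inflamed tissue. Of 8 genes listed for follicular dendritic cells, the stromal cells that hold antigen in B cell follicles, 6 rose in vehicle-treated Tnf ∆ARE/+ mice, led by Clu at 3.11 ± 0.49 and Mfge8 at 2.34 ± 0.37 (edgeR adjusted p = 0.000161 and 0.000193). Their summed level was 1082 to 2076 CPM in those mice and 137 to 495 CPM in Tnf +/+ mice. In vehicle-treated colitis mice 5 of 7 tested rose and 1 fell, led by the mucosal addressin Madcam1 at 3.25 ± 0.56 and the Fc receptor gene Fcgr2b at 2.10 ± 0.39 (edgeR adjusted p = 0.00225 and 0.00295), while the list's summed level overlapped, at 116 to 770.3 CPM in those mice and 171 to 275 CPM in controls. Macrophages, B cells or epithelium also express several of these genes. The list medians were 1.96 in the TNF∆ARE model and 1.44 in the transfer model, against -0.02 and 0.05 for all genes tested.

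Of 9 genes listed for fibroblastic reticular cells, the stroma of T cell zones, 5 rose in each vehicle comparison. The list medians were 1.29 in the TNF∆ARE model and 0.87 in the transfer model, against -0.02 and 0.05 for all genes tested. Over all genes, 8.66% were called higher in vehicle-treated Tnf ∆ARE/+ mice and 7.90% in vehicle-treated colitis mice. These shares apply to every list count of the 2 comparisons. Myeloid genes rose in both models too, and which cells carried the reticular genes was not tested. Tnfsf11, which encodes RANK ligand, rose in both, by 2.99 ± 0.51 in Tnf ∆ARE/+ mice and by 2.80 ± 0.52 in colitis mice (edgeR adjusted p = 0.00041 and 0.00281). Ch25h, whose oxysterol product guides B cells, rose by 2.46 ± 0.36 in Tnf ∆ARE/+ mice (edgeR adjusted p = 8.28e-05). Bst1 rose by 5.23 ± 0.77 in colitis mice (edgeR adjusted p = 0.00113), and by 4.16 without the small intestinal library (edgeR adjusted p = 1.20e-05). Of high endothelial venule genes, 4 of 9 rose and 1 fell in Tnf ∆ARE/+ mice, with Fut7, which encodes a fucosyltransferase, at 3.05 ± 0.51 (edgeR adjusted p = 0.000297), and 1 of 8 rose in colitis mice. The venule list medians were 0.26 and 0.07. Of 6 lymphatic endothelial genes tested, 1 rose in Tnf ∆ARE/+ mice and 0 passed in colitis mice, with medians of -0.03 and -0.32. Given the shares over all genes, 1 call in so short a list is no result about it. These lists share genes, so their counts are not separate. The venule gene that rose in colitis mice was Madcam1, also listed for follicular dendritic cells. The lymphatic gene that rose in Tnf ∆ARE/+ mice was Pdpn, also a listed reticular gene, and Tnfsf11 is on the lymphotoxin list as well. Without the small intestinal library, 6 of 9 reticular, 2 of 8 venule and 1 of 6 lymphatic genes rose in vehicle-treated colitis mice.

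Of 12 lymphotoxin and noncanonical NF-kappaB genes, 4 rose in vehicle-treated Tnf ∆ARE/+ mice and 8 rose and 1 fell in vehicle-treated colitis mice. The list medians were 0.92 and 0.93, against -0.02 and 0.05 for all genes tested. Tnf, whose own transcript is altered by the ∆ARE deletion, led in the TNF∆ARE model at 5.06 ± 0.41 (edgeR adjusted p = 1.16e-07), and Tnfsf14 and Ltb, ligands of the lymphotoxin pathway, led in the transfer model at 3.73 ± 0.73 and 3.08 ± 0.64 (edgeR adjusted p = 0.00332 and 0.00467). Tnfrsf13b, a receptor for BAFF and APRIL, rose by 1.04 ± 0.35 in Tnf ∆ARE/+ mice and by 2.09 ± 0.43 in colitis mice (edgeR adjusted p = 0.0480 and 0.00433). Of 12 further homeostatic chemokine and chemoattractant receptor genes, 5 rose in Tnf ∆ARE/+ mice, led by Ccl20 at 2.50 ± 0.73 and its receptor Ccr6 at 2.48 ± 0.62 (edgeR adjusted p = 0.0238 and 0.00893). In colitis mice 7 rose and 1 fell, with Cxcr4 at 2.81 ± 0.50 (edgeR adjusted p = 0.00253). The largest value there, 5.57 ± 1.49 for Ccl25 (edgeR adjusted p = 0.0176), belongs to a small intestinal chemokine, and without the small intestinal library it was 1.35 and did not pass (edgeR adjusted p = 0.141).

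Of the germinal centre genes, none of 8 passed in vehicle-treated Tnf ∆ARE/+ mice and none of 6 in vehicle-treated colitis mice, with medians of 0.14 and 0.23. Without the small intestinal library, 1 of those 6 rose and 1 fell in colitis mice. With ATI-450 on both sides 3 of 6 rose in colitis mice, with a median of 0.83, and none of 8 passed in Tnf ∆ARE/+ mice, with a median of -0.75. Follicular helper T cell genes rose in 5 of 7 cases in colitis mice, led by Sh2d1a at 4.62 ± 0.98 and Pdcd1 at 3.49 ± 0.64 (edgeR adjusted p = 0.0039 and 0.00245), and in 0 of 5 in Tnf ∆ARE/+ mice. Their median in colitis mice was 2.83, close to the 2.81 of the T cell list, and Cxcr5 had 28 counts over those 6 vehicle libraries. Whether follicular helper cells rose apart from T cells in general was not tested. Of mature dendritic cell genes, which include other carriers of Ccr7, 6 of 9 rose in Tnf ∆ARE/+ mice, with Ccl17 at 2.55 ± 0.47 (edgeR adjusted p = 0.000798), and 3 of 10 rose in colitis mice, with Cd40 at 2.86 ± 0.68 (edgeR adjusted p = 0.00955). Myeloid genes rose with inflammation as well: 7 of 8 monocyte and macrophage genes and all 5 tested neutrophil genes in Tnf ∆ARE/+ mice, and 6 of 8 and all 6 in colitis mice. The part of these cells in the results for the 8 genes was not tested. Of naive and central memory T cell genes, many of whose carriers use Ccr7 to enter lymph nodes, 1 of 7 rose in Tnf ∆ARE/+ mice, Klf2 at 0.71 ± 0.24 (edgeR adjusted p = 0.0464), and 4 of 7 rose in colitis mice, with Il7r at 3.35 ± 0.87 (edgeR adjusted p = 0.0153, and 0.0727 without the small intestinal and pancreatic libraries). Aqp8 and Car1, the 2 of 5 colon genes with enough counts to be tested, rose in vehicle-treated Tnf ∆ARE/+ mice. The 5 colon genes summed to 1.28 to 758 CPM in those mice, against 0.396 to 2.64 CPM in Tnf +/+ mice. Car1 averaged 286 CPM in the Tnf ∆ARE/+ mice. Hoxb13 averaged 0.0872 CPM in them, against 0.0218 CPM in Tnf +/+ mice. In the same comparison 5 of 7 enterocyte genes fell. Without the small intestinal and pancreatic libraries, vehicle-treated colitis mice had higher levels of 5 of 7 follicular dendritic, 5 of 9 reticular, 4 of 7 follicular helper, 3 of 7 naive T cell, 6 of 12 lymphotoxin and 5 of 12 chemoattractant genes tested, with none of these lists' genes called lower, and of 1 of 6 germinal centre, 7 of 8 monocyte and 4 of 6 neutrophil genes. Over the whole table that fit called 1053 genes, against 2172 with every library. None of 9 pancreatic and none of 4 adipose genes passed in colitis mice, while 1 of 6 adipose genes fell in Tnf ∆ARE/+ mice. ATI-450 called no gene of any of the 19 lists in inflamed or control mice. Over all genes it called 0.00653% in colitis mice and 0% in Tnf ∆ARE/+ mice and in the controls of both models. The absence of calls is therefore no result about these lists.

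Per kilobase of exon, Ccl21a and Cxcl13 were the highest 2 in all 8 groups. Ccl21a stood first in 7 of them, at 89.5 CPM per kilobase in colitis mice on ATI-450, and Cxcl13 first in vehicle-treated Tnf ∆ARE/+ mice, at 71.0 CPM per kilobase against 70.3 for Ccl21a, values that lie within their spread. Ccl19 followed in all 4 inflamed groups, at 4.72 to 8.47 CPM per kilobase, with Ccr7 next at 2.68 to 4.25.

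Within groups, the follicular genes varied together in the TNF∆ARE model. After each group's mean was removed, Pearson's r over 21 libraries was 0.96 for Cxcl13 with Cxcr5, 0.94 for Cxcl13 with Ccr7, 0.92 for Cxcl13 with Cr2 and 0.96 for Cxcr5 with Cr2. Ccl19 and Ccl21a were most like each other, at 0.89. Tnfsf13b stood outside, with r from -0.16 to 0.20 against the other 7. In the transfer model, over 23 libraries, Ccl19 with Cxcl13 reached 0.75, Ccl19 with Ccr7 0.74 and Cxcl13 with Ccr7 0.695, while Ccl21a stayed between 0.15 and 0.46 with each of the other 4 genes tested. These are descriptions: the libraries share depth, tissue makeup and the scaling of their group.

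**Figure D3:**
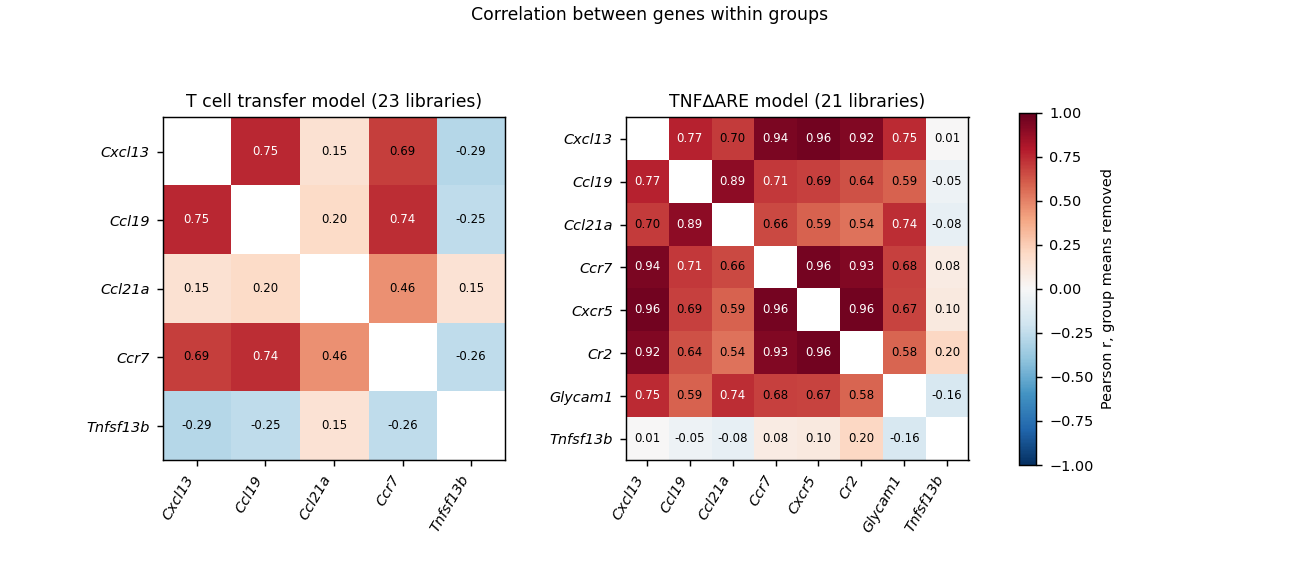
Pearson's r between genes (both axes) after group means were removed, for the genes tested in each model; colour runs from -1 to 1. The Cxcl13, Ccr7, Cxcr5 and Cr2 block of the TNF∆ARE model lies at 0.92 or above, and the Tnfsf13b line of both models lies near or below 0.2.

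The genes whose within-group pattern was closest differed by model. In the TNF∆ARE model, the 3 genes most like Cxcr5 were Fcmr, Ms4a1 and Fcer2a (r = 0.984, 0.979 and 0.979), and for Cr2 they were Fcmr, Cnr2 and Fcer2a (r = 0.972, 0.97 and 0.953). Cxcl13 was closest to H2-Eb2, Cd22 and Il4i1 (r = 0.981, 0.969 and 0.968), and Ccr7 to Ms4a1 and Ltb (r = 0.965 and 0.963). Most of these are known B cell or lymphocyte genes, and the median r over the 10 B cell genes was 0.955 for Cxcl13, 0.944 for Cxcr5, 0.931 for Ccr7, 0.898 for Cr2 and 0.053 for Tnfsf13b. Ccl19 was closest to Icam1 (r = 0.888), Ccl21a to St6gal1 (r = 0.882), Glycam1 to Tnfrsf18 (r = 0.863) and Tnfsf13b to Ncbp1 (r = 0.747). In the transfer model, Cxcl13 was closest to Mfge8, Chst14 and Krt36 (r = 0.902, 0.897 and 0.896), and its median r was 0.209 over the 2 tested B cell genes and 0.521 over the T cell genes. Ccl19 was closest there to Bcl2a1b (r = 0.932), Ccr7 to Acod1 (r = 0.9), Ccl21a to Hoxd10 (r = 0.792) and Tnfsf13b to Cdkn2aip (r = 0.727).

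Set beside B cell genes, Cxcl13 of the TNF∆ARE model fell into 2 bands. Per 100 CPM of the 10 summed B cell genes, it stood at 30.5 to 53.1 CPM in Tnf ∆ARE/+ mice on ATI-450 and at 29.8 to 42.0 CPM in those on vehicle, against 8.74 to 11.5 CPM in Tnf +/+ mice on ATI-450 and 9.32 to 16.3 CPM in those on vehicle. No inflamed library overlapped a control. Ccl19 stood at 1.36 to 4.35 and 2.22 to 4.93 CPM in the 2 Tnf ∆ARE/+ groups, with ATI-450 and with vehicle, against 0 to 0.949 and 0.411 to 2.44 CPM in the 2 Tnf +/+ groups, and these overlapped. Cxcr5 ratios overlapped throughout, at 3.04 to 5.10 CPM in vehicle-treated Tnf ∆ARE/+ mice and 1.63 to 6.41 CPM in vehicle-treated Tnf +/+ mice. The ratios were chosen after the levels had been seen and are given as a description, with no test.

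**Figure D4:**
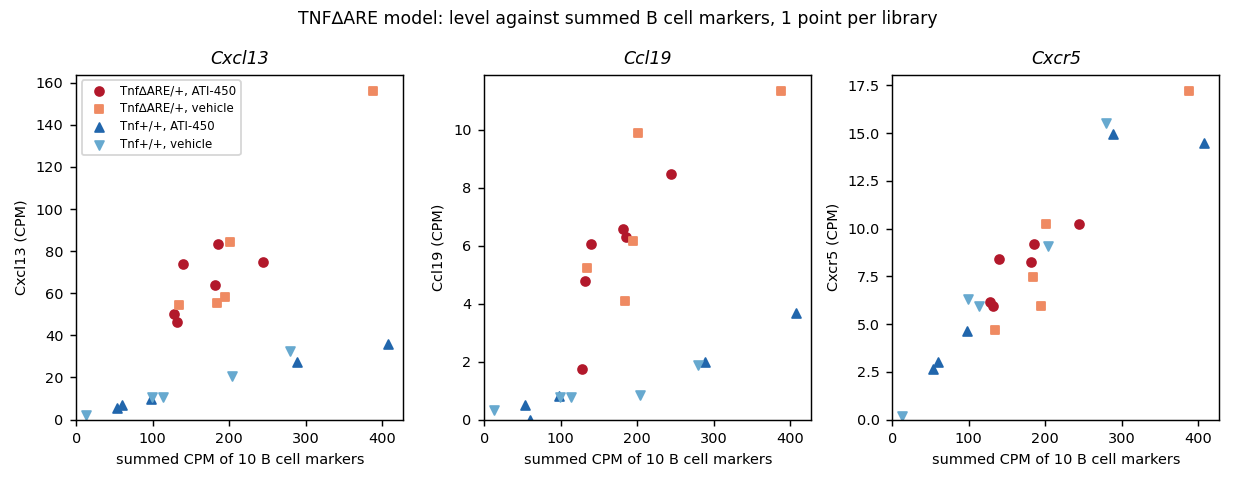
Level in CPM of Cxcl13, Ccl19 and Cxcr5 (vertical axes) against the summed CPM of 10 B cell genes (horizontal axes), with 1 point for each of the 21 libraries of the TNF∆ARE model. Tnf ∆ARE/+ libraries lie above Tnf +/+ libraries with a like B cell sum for Cxcl13, while for Cxcr5 all 4 groups lie along the same band.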

How the data were processed

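The deposited tables hold, per the labels and the submitters' processing notes, gene-level estimated counts from Salmon 0.14.1 (mm10/GRCm38) and the authors' DESeq2-normalized signal for the same libraries. Libraries were made with poly-A selection and a directional kit. The estimated counts, which are whole numbers as deposited, were fitted separately per model in edgeR 4.0.16 (R 4.3.3): filterByExpr, TMM scaling, terms for group and batch, quasi-likelihood tests over all genes, Benjamini-Hochberg threshold 0.05. The inflammation effect was compared between models in 1 joint fit. CPM use TMM-scaled totals. Covariation used log2 CPM with a prior count of 2. Named genes were the 8 members, at most 2 passing genes per list with the largest change, and the 3 most similar genes per member; some items are not reported here. The members and lists were chosen with earlier results of these data known. Alternatives were DESeq2 1.42.0, limma-voom (limma 3.58.1), other scaling, filter and batch choices, summed copies, left-out libraries, and limma on log2 of the deposited signal plus 1. Scripts were tested on simulated data. Figures were drawn with matplotlib 3.10.9.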

Additional observations from a re-analysis of the deposited data

Results flagged for a closer look

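In 64 sets of 5 or 6 values, 1 set per gene and group, 11 held a library set apart from the others. A chance rate of about 1 in 20 cannot be set against this number, because some sets held few libraries with any count. Several of the genes also varied together, so the sets are not separate, and the 11 are given as a description. Control replicate 5 of the transfer model with ATI-450 was the highest of its group for Cxcl13 (16.74 CPM), Ccl19 (1.135 CPM) and Ccr7 (2.979 CPM). That library was the only one of its group in batch 3. It also had neutrophil genes summing to 84.1 CPM, and the part of batch or of neutrophils in these levels was not tested. In vehicle-treated controls of the same model, replicate 7 stood apart for Tnfsf13b at 3.086 CPM.

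In the TNF∆ARE model, Ccr7 stood apart in Tnf ∆ARE/+ replicate 1 with ATI-450 (7.316 CPM) and in Tnf ∆ARE/+ replicate 2 with vehicle (10.57 CPM). The first of these was the only library of its group in batch 2. Among Tnf +/+ mice on vehicle, Ccl21a stood apart in replicate 1 (53.77 CPM), and Tnfsf13b in replicate 3 (1.387 CPM), the only library of that group with any count for it. The other 3 rest on 4 counts or fewer each: Cr2 in colitis replicate 3 with ATI-450 (0.2715 CPM), Cr2 in colitis replicate 5 with vehicle (0.04391 CPM), and Glycam1 in control replicate 2 with ATI-450 (0.221 CPM).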

How the results depend on the processing

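Of 8 members, the calls in vehicle-treated colitis mice (3) became 0 with the compared groups fitted alone and 0 within a single batch, where fewer libraries set the spread; log2 differences there were 2.74 and 2.74 for Cxcl13, 3.51 and 3.51 for Ccl19, and 2.76 and 2.77 for Ccr7. All 3 calls remained without the small intestinal library and without it and the pancreatic libraries. In Tnf ∆ARE/+ mice on ATI-450 the calls (1) became 3 with limma-voom, 4 without a batch term, 0 with the replicate block, 0 with limma on the deposited signal, 0 with copies summed, 0 with estimateDisp (added after seeing the data) and 0 with the compared groups alone, and 0 to 3 when 1 library was left out. ATI-450 in Tnf +/+ mice gave 1 call with DESeq2 and 0 to 1 with 1 library left out, and the test between models gave 2 with limma-voom and 0 to 1 with 1 library left out; the causes were not tested.

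The values whose direction turned did not pass the test, as reported or in the settings named here. Ccl21a in vehicle-treated colitis mice was 0.091 without a batch term, 0.10 with the replicate block, 0.061 with copies summed, 0.061 without the small intestinal library, 0.21 without the pancreatic ones too, 0.032 with the compared groups alone and 0.050 in a single batch, and -0.19 to 0.061 with 1 library left out. For ATI-450 in colitis mice, Ccl21a was -0.26, Ccr7 -0.33 and Tnfsf13b -0.54 without the small intestinal and pancreatic libraries, Cxcl13 0.67 and Tnfsf13b -0.073 without a batch term, Cxcl13 0.095 with deposited signal, and Ccr7 -0.43 with the replicate block; with 1 library left out, Ccl19 ran from -0.78 to 0.015, Cxcl13 from -0.34 to 0.27 and Ccr7 from -0.037 to 0.61. For colitis on ATI-450, Tnfsf13b was -0.015 without those libraries and -0.41 in a single batch. For ATI-450 in Tnf ∆ARE/+ mice, Cxcl13 was 0.011 with limma-voom, Ccr7 -0.27 and Cxcr5 -0.20 without a batch term, Ccr7 -0.32, Cxcr5 -0.045 and Tnfsf13b -0.17 with the replicate block, and Cr2 0.77 with deposited signal; with 1 library left out, Ccl19 ran from -0.27 to 0.067, Cxcl13 from -0.47 to 0.27, Ccr7 from -0.058 to 0.20, Cxcr5 from -0.31 to 0.76 and Glycam1 from -1.18 to 1.21. Cxcr5 in vehicle-treated Tnf ∆ARE/+ mice ran from -0.0056 to 0.83. Between models, Cxcr5 was -0.077 and Glycam1 0.15 with the compared groups alone, Glycam1 0.68 without the small intestinal and pancreatic libraries, and with 1 library left out Ccl19 ran from -0.24 to 1.03 and Cxcr5 from -0.048 to 0.90.

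Genes called over the whole table ranged, over settings other than leaving out 1 library, from 0 to 6130 in vehicle-treated colitis mice (2172 as reported; 685 without control replicate 6), 1275 to 2710 in vehicle-treated Tnf ∆ARE/+ mice (2288), 3199 to 8047 in colitis mice on ATI-450 (3824; 1863 without colitis replicate 2, 2515 without colitis replicate 1 and 2471 without control replicate 6), 929 to 4485 in Tnf ∆ARE/+ mice on ATI-450 (1791; 453 without Tnf ∆ARE/+ replicate 1) and 0 to 1583 between models (821; 372 without transfer control replicate 6). For ATI-450 against vehicle, DESeq2 called 23 genes in colitis mice, 45 in their controls and 33 in Tnf +/+ mice, where edgeR called 1, 0 and 0; with 1 library left out edgeR called 0 to 2 in Tnf ∆ARE/+ mice (0). Same-numbered libraries were not paired: in no comparison did every pair correlate above 0.1, and median r ran from -0.066 to 0.323. With the replicate block, Ccl19 in vehicle-treated colitis mice was 6.26, and the calls there numbered 6130. Of 128 levels, 124 moved by less than 1 SD; the other 4 were Cr2 on the deposited signal in the vehicle groups of the transfer model and in both Tnf +/+ groups, where it was 16.5 per 1000000 with ATI-450 and 16.0 with vehicle, against 8.80 and 7.94 CPM. Few counts limit Cxcr5, Cr2 and Glycam1 in the transfer model and Tnfsf13b in Tnf +/+ mice.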

Other observations

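The Ccl19 and Ccl21 copies were counted apart from the genes themselves. Gm13304, which differs from Ccl21a at 5 of 837 bases, stood at 38.0 CPM on average in vehicle-treated colitis mice (18.03 to 57.7), against 27.7 CPM in vehicle-treated controls (21.2 to 40.5), and these groups overlapped. Gm21541, a further copy, had no count in any TNF∆ARE library and none in 20 of 23 transfer libraries. The copies Ccl21b and Gm10591 were not analysed here.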
